A study of Mus musculus with 5 samples.

Results

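Interferon-responding T cells are T cells in which several classical interferon-stimulated genes are active in the same cell. Here they were the Foxp3-negative T cells of the injured mouse kidney that had at least 1 unique molecular identifier (UMI, a counted transcript) of at least 4 of the 8 genes Ifit1, Ifit3, Ifit3b, Rsad2, Isg15, Mx1, Usp18 and Cmpk2. Members also had a UMI of Cd3e, which encodes a CD3 signalling chain of T cells, and no UMI of Foxp3, the regulatory T cell factor, or C1qa, a macrophage complement gene. Only cells with at least 500 genes and with under 10% of UMIs from mitochondrial genes were used. The rule found 1876 cells, which were 7.76% of the 24161 T cells that met its Cd3e, Foxp3 and C1qa conditions and 4.88% of all 38417 cells kept. There were 261, 379 and 148 of them in the knockout libraries and 829 and 259 in the control libraries.

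The study asked what ST2, the receptor for interleukin-33 encoded by Il1rl1, does in regulatory T cells of the kidney. The genotype of the 3 knockout libraries was Il1rl1fl/fl Foxp3YFP-Cre, with Cre recombinase driven by Foxp3, and that of the 2 control libraries was Il1rl1fl/fl, with the floxed gene left uncut. All mice were 10 weeks old and had ischemia-reperfusion injury, in which the blood flow of a kidney is stopped and restored. CD4 T cells were sorted by flow cytometry from digested kidney and read with droplet-based single-cell 3′ RNA sequencing. The Foxp3YFP-Cre allele was in the knockout group alone, so that allele and the loss of Il1rl1 cannot be told apart. The sources used here give neither the deleted exons nor whether each library came from a separate animal, so the p-values measure the spread between these libraries, which may be technical.

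The libraries held between 4580 and 10899 barcodes and between 31104939 and 152275841 UMIs, and control replicate 1 was the deepest. Median UMIs per interferon-responding cell were 9025, 5385 and 6240 in the knockout libraries and 17700 and 5887 in the control libraries. Interferon-responding cells had 1.15 to 1.42 times the median UMIs of the other T cells of their library, so each was paired with the T cell of the same library whose UMI total was nearest among those not yet taken. The matched cells had median UMIs of 9021, 5387 and 6240 in the knockout and 17701 and 5886 in the control libraries. The largest difference between the ordered totals of both classes was 452 to 3484 UMIs in the knockout and 5855 and 10827 in the control libraries, so the deepest cells were matched less closely. Any 2 libraries shared 2 to 39 cell barcodes, and 1 barcode was shared between interferon-responding cells of different libraries.

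Interferons are cytokines that warn cells of infection or tissue damage. Type I and type III interferons act through receptors that activate the kinases Jak1 and Tyk2, and these activate a factor that holds Stat2 and Irf9 and binds the interferon-stimulated response element (ISRE) of antiviral genes. Interferon-γ, the product of Th1 and natural killer cells, acts through another receptor, whose signal reaches the interferon-γ-activated site (GAS), so the gene programs of both kinds overlap.

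The promoters of genes used by the rule, and that of Cxcl10, are shown because the ISRE is the DNA element through which this response acts. They are the 250 bases before the RefSeq start on GRCm38.p6, printed 5′ to 3′ on the gene's strand, with capitals at matches to GAAANNGAAA or its reverse complement. Ifit1 (chr19:34640639-34640888, plus strand), which encodes a protein that binds foreign RNA ends, has matches that begin 104 and 85 bases before the start. Ifit3 (chr19:34583279-34583528, plus strand), its partner in the same complex, has them at 156 and 122 bases. Isg15 (chr4:156200819-156201068, minus strand), a ubiquitin-like modifier, has 3 overlapping matches at 78, 72 and 66 bases. Rsad2 (chr12:26456453-26456702, minus strand), which encodes the antiviral enzyme viperin, has 1 at 120 bases. Cxcl10 (chr5:92348890-92349139, minus strand), a chemokine for Cxcr3-bearing T cells that the rule did not use, has 1 at 213 bases.
Ifit1: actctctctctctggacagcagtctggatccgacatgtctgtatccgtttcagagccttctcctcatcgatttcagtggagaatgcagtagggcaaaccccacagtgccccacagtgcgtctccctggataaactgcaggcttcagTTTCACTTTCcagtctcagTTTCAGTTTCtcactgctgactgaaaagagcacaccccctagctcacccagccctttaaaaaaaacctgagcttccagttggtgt
Ifit3: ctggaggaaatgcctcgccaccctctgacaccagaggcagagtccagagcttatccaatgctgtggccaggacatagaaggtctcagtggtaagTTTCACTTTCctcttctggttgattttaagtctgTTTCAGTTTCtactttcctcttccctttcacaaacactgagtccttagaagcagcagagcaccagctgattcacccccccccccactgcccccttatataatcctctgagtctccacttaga
Isg15: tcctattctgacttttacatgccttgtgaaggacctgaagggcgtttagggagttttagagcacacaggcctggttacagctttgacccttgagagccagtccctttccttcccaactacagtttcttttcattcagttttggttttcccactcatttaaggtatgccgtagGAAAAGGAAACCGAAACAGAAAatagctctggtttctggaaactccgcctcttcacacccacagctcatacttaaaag
Rsad2: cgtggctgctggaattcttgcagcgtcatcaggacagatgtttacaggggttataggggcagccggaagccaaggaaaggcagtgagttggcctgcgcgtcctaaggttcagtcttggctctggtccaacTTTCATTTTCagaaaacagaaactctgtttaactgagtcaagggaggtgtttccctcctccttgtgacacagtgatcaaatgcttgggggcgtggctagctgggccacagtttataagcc
Cxcl10: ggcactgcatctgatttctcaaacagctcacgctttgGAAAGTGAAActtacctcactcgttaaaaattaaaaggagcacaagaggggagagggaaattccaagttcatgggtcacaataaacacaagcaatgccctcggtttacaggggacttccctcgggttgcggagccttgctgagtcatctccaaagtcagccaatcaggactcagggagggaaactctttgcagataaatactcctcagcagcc

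The element was searched on both strands in windows from 250 bases before to 50 bases after the start. It was in 5 of the 6 genes of the rule that had a RefSeq window, and in 1079 of all 27025 genes with one (3.99%). Cmpk2 had no match. Of the fixed gene lists, 22 of 55 antiviral effectors, 10 of 14 interferon-γ GTPases and targets and 5 of 20 MHC class I genes held it, against 0 of 18 cell cycle genes. The GAS letters TTCNNNGAA were in 9.55% of all genes with a window, in 7 of the 14 interferon-γ genes and in 0 of the 6 genes of the rule. A match describes these letters only, and no match says nothing about the factor.

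The genes of the rule are given as a description, since they chose the cells. Isg15 was detected in 94.1% of the interferon-responding cells, Ifit1 in 88.6%, Mx1 (a GTPase against viruses) in 81.8%, Ifit3 in 77.4% and Usp18 (the enzyme that removes Isg15 and damps the receptor) in 71.4%. Rsad2 was detected in 60.2%, Cmpk2 (a mitochondrial nucleotide kinase) in 59.97% and Ifit3b in 52.4%. These cells were 7.76% of the T cells and held between 65.4% (Mx1) and 92.2% (Rsad2) of all UMIs of each of these genes. Ifit3 and Ifit3b are paralogues, and whether reads were split between them was not tested. An alignment of the last 500 bases of their longest transcripts, near which 3′ reads lie, had 237 identical bases over 529 columns. That of their 300-base promoter windows, which does not bear on reads, had 258 over 340 columns.

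In UMIs per 1000000 summed UMIs of the cells (CPM), Isg15 had 819, 827 and 1065 in the interferon-responding cells of the knockout libraries and 580 and 1115 in those of the control libraries. Ifit1 had 532, 486 and 525 CPM in knockout cells and 320 and 496 in control cells. Rsad2 had 248, 344 and 328 CPM in knockout cells and 164 and 298 in control cells. Control replicate 1, the deepest library, was the lowest for these 3 genes, and the groups overlapped for Isg15, Ifit1 and Rsad2.

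The detection threshold cut through a continuum. Of the T cells, 908 had 3 of the 8 genes and lay just outside, 506 had 4 and lay just inside, and 391 had all 8. The 8 genes summed to a median of 4.24 UMIs per 10000 in cells with 3 genes, 7.40 in cells with 4 and 63.2 in cells with 8. With all UMIs, cells with all 8 genes were more frequent than cells with 6, of which there were 289. Of the 391 cells with all 8 genes, 200 were in control replicate 1, the deepest library. With each cell thinned at random to 2000 UMIs the order turned, with 107 cells at 6 genes and 39 at 8.

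**Figure D1:**
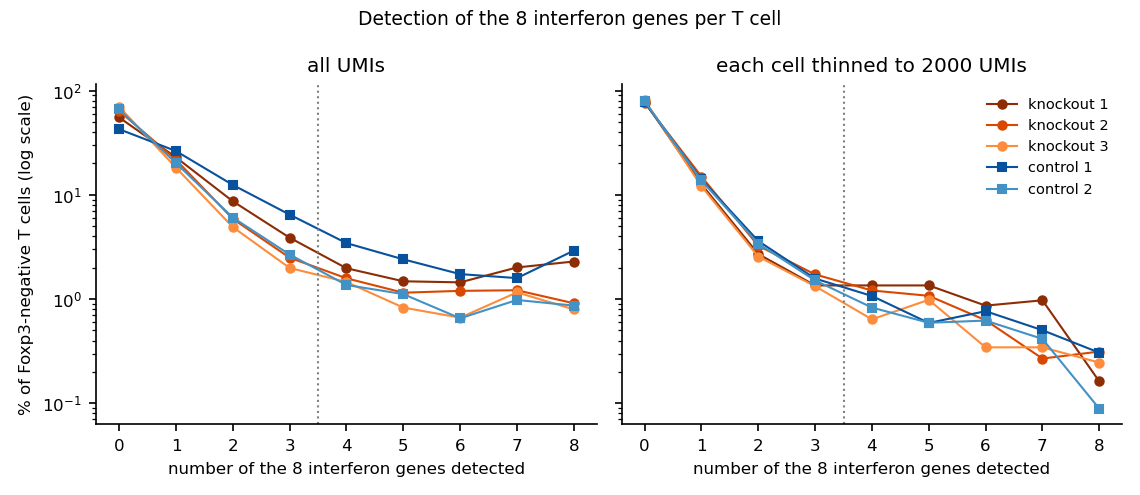
Percentage of Foxp3-negative T cells (log axis) by the number of the 8 interferon genes detected, with all UMIs (left) and with each cell thinned to 2000 UMIs (right), one line per library (circles knockout, squares control; the dotted line is the threshold of 4 genes). With all UMIs control replicate 1 lies above the other libraries from 1 to 6 genes and at 8 genes, and after thinning its line falls among theirs.

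Because detecting 4 genes is easier in a deep cell, the share of interferon-responding cells was compared after every cell was thinned to 2000 UMIs and shallower cells were left out, 335, 1618 and 832 of the cells kept in the knockout and 296 and 1816 in the control libraries. The shares were then 4.71%, 3.49% and 2.56% of Foxp3-negative T cells in the knockout libraries and 3.23% and 2.55% in the control libraries. Both control values lay inside or at the edge of the knockout range. The mean was 3.59% ± 1.08 (SD, n = 3) in knockout and 2.89% ± 0.487 (SD, n = 2) in control libraries, a difference of 0.695 percentage points (two-sided exact permutation test, p = 0.4, where 3 against 2 libraries allow no p below 0.2). Without thinning the shares were 9.21%, 6.06% and 4.91% in knockout and 12.1% and 4.98% in control libraries, and the difference was -1.81 percentage points. The direction thus turned with thinning, and no difference in frequency was detectable with these libraries.

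The same count of 4 of 8 genes, at 2000 UMIs, was met by 529 of 16300 Foxp3-negative T cells (3.25%), by 18 of 700 T cells with Foxp3 (2.57%, 95% exact interval 1.53 to 4.03) and by 60 of 2345 cells with C1qa (2.56%, 1.96 to 3.28). It was met by 5 of 333 cells with Cd79a, a B cell receptor component (1.502%, 0.489 to 3.47). Intervals cover counting error only, and no test between these classes was made.

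Beyond the genes of the rule, interferon-responding cells carried a broad antiviral program. In the comparison with matched T cells, edgeR's quasi-likelihood test with Benjamini-Hochberg adjustment called 888 of 10015 genes higher (8.87%) and 513 lower (5.12%) at an adjusted p under 0.05, 14.0% in all. All 5 libraries lay higher for 12.4% of genes and all lower for 9.7%. Among the antiviral effectors, 62 of the 63 tested were called higher and 0 lower, with a median log2 fold change of 2.03 beside -0.01 over all genes, and Ifitm1 alone was not called. A gate on 8 interferon genes also picks cells for genes induced together with them, so the values of the effectors, sensors, signalling genes and GTPases describe these cells and, apart from the receptor chain Ifnar2, are printed without a p.

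Cxcl10, the chemokine whose promoter is printed above, had the smallest p. It had 294, 294 and 404 CPM in the interferon-responding cells of the knockout libraries and 204 and 280 in those of the control libraries, against 4.92, 9.68 and 7.56 CPM in matched cells of the knockout libraries and 3.02 and 2.19 in those of the control libraries. The classes lay far apart in all 5 libraries, with a log2 fold change of 5.85 (SE 0.12). A UMI of it was found in 566 of 1876 interferon-responding cells (30.2%) and in 59 of 1876 matched cells (3.14%). Cells with Cd79a but without Cd3e had it in 1 of 140 (0.714%), at a median of 4956 UMIs against 10850.5 in the interferon-responding cells. C1qa-positive cells, which lie outside the rule, had it in 10.2% of 4029.

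Oasl2, an oligoadenylate synthetase-like protein, had 121, 118 and 98.9 CPM in interferon-responding cells of the knockout libraries and 90.1 and 133 in those of the controls, against 6.89, 11.9 and 8.39 CPM in matched cells of the knockouts and 5.87 and 7.12 in those of the controls. Its log2 fold change was 3.86 (SE 0.11). Slfn5, of the Schlafen family of growth and virus restriction factors, averaged 752 ± 123 CPM in interferon-responding cells and 64.5 ± 14.2 in matched cells (SD, n = 5 libraries each). Rtp4, a chaperone of receptors that is induced by interferon, averaged 184 ± 23.8 CPM in interferon-responding cells and 25.1 ± 2.89 in matched cells. No library of either class overlapped the other for these 3 genes.

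The other effectors with the smallest p were Ifi213 (log2 fold change 2.33) and Ifi206 (2.12) of the family of interferon-inducible nuclear proteins, the ubiquitin ligases Rnf213 (2.63), Trim30a (2.09) and Herc6 (2.46), the helicase-like Ddx60 (2.65), the Schlafen gene Slfn1 (1.68) and the histone chaperone Daxx (2.41). Parp14, an ADP-ribosyltransferase, had 1.90 and the small mitochondrial protein gene Ifi27l2a had 1.33. Ifi27l2a had 883 ± 225 CPM in interferon-responding cells and was well expressed in matched cells too, at 351 ± 85.0 CPM (SD, n = 5 libraries each).

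Of 12 sensors of foreign nucleic acid tested, 9 were called higher and 0 lower, beside 8.87% and 5.12% of all genes. Ifih1, the long double-stranded RNA sensor MDA5, averaged 380 ± 85.4 CPM in interferon-responding cells and 56.7 ± 11.4 CPM in matched cells (SD, n = 5 libraries each; log2 fold change 2.62). Dhx58 (the regulator LGP2) had a log2 fold change of 2.68, Ddx58 (RIG-I) 1.63 and the endosomal RNA sensor Tlr7 1.40. The adaptors Mavs and Ticam1 and the factor Irf3 did not pass.

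The nuclear end of the pathway was higher, and most of its membrane end did not pass the test. Stat2 had 217, 278 and 199 CPM in interferon-responding cells of the knockout libraries and 162 and 244 in those of the controls, against 44.3, 62.6 and 39.5 CPM in matched cells of the knockouts and 49.6 and 54.2 in those of the controls. The 2 classes did not overlap, and the log2 fold change was 2.03 (SE 0.08). Irf9 had a log2 fold change of 1.33, Jak2 0.55, Stat3 0.39 and Stat4 0.19. Ifnar2, a chain of the type I receptor, had 0.22 (adjusted p = 0.019 in edgeR). It did not pass with DESeq2 (adjusted p = 0.173). In edgeR it did not pass without knockout replicate 1 (adjusted p = 0.057) or against all other T cells (adjusted p = 0.127). At 2000 UMIs its log2 fold change was -0.0094. Ifnar1, Ifngr1, Ifngr2, Il10rb, Jak1 and Tyk2 did not pass. Of the 12 genes reported here of receptors and JAK-STAT signalling, 6 were called higher and 0 lower, beside 8.87% and 5.12% of all genes.

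Among the interferon regulatory factors 5 of 8 were called higher and 0 lower, beside 8.87% and 5.12% of all genes. Irf7, which amplifies type I interferon production, had 189, 223 and 219 CPM in interferon-responding cells of the knockout libraries and 160 and 246 in those of the controls, against 28.9, 37.6 and 35.3 CPM in matched cells of the knockouts and 31.6 and 28.5 in those of the controls. Irf2, a competitor of Irf1 at the same DNA sites, had a log2 fold change of 0.74 and Irf1, a target of both kinds of interferon, 0.64. Irf3, Irf4 and Irf8 did not pass. Beside the 8.87% and 5.12% of all genes, 2 of 11 feedback inhibitors were called higher and 0 lower. These were Socs1, which blocks Jak kinases, at 172 ± 56.1 CPM in interferon-responding cells and 61.8 ± 15.9 CPM in matched cells, and Nmi, a binding partner of Stat proteins, at 237 ± 16.0 CPM against 111 ± 7.43 CPM (SD, n = 5 libraries each).

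The ligands themselves were nearly absent. The 20 type I and type III interferon genes in the files had 0 UMIs among the 26769370 UMIs of interferon-responding cells, and 17 of these genes had no UMI in any cell kept. All cells kept together had 17 UMIs of them, of which 14 were of Ifnz, 2 of Ifnk and 1 of Ifnb1. A count of 0 in interferon-responding cells, taken as at most 3 UMIs, allows up to 0.112 CPM over the 20 genes, which limits the detected transcripts and not the production of the proteins.

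Ifng, by contrast, was transcribed by the interferon-responding cells, with 1497 UMIs. It had 56.8, 118 and 63.9 CPM in interferon-responding cells of the knockout libraries and 44.4 and 98.8 in those of the controls, against 39.0, 73.4 and 31.9 CPM in matched cells of the knockouts and 28.3 and 33.4 in those of the controls. It was higher in interferon-responding cells in 5 of 5 libraries, with a log2 fold change of 0.79 (SE 0.11, adjusted p = 9.9e-05 in edgeR). With all cells thinned to 2000 UMIs it was 0.40 and did not pass (adjusted p = 0.324). A UMI was detected in 31.1% of interferon-responding cells, 24.2% of matched cells and 2.14% of the 140 cells with Cd79a but without Cd3e.

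Genes known mainly as targets of interferon-γ were called higher in 22 of the 22 tested, beside 8.87% of all genes. Their median log2 fold change was 2.00. They include the GTPases that attack the membranes around intracellular parasites. Iigp1 of that family had 564, 668 and 591 CPM in interferon-responding cells of the knockout libraries and 332 and 535 in those of the controls, against 48.9, 53.6 and 16.8 CPM in matched cells of the knockouts and 42.8 and 30.1 in those of the controls (log2 fold change 3.53). Gm4951, a further member of the family, had a log2 fold change of 4.02, Igtp 1.99 and Irgm1 1.96. Gbp2, a guanylate-binding protein, had 2.19. Cd274, which encodes the inhibitory ligand PD-L1, had 211, 197 and 200 CPM in interferon-responding cells of the knockout libraries and 129 and 144 in those of the controls, against 57.4, 49.5 and 42.8 CPM in matched cells of the knockouts and 58.2 and 30.1 in those of the controls. Most of these genes respond to type I interferon too, so the list does not separate the 2 kinds.

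Transcripts of MHC class I antigen presentation were called higher in 21 of 23 genes and lower in 0, beside 8.87% and 5.12% of all genes. The median log2 fold change was 0.52. The gate may favour these genes too, so the values describe the cells. H2-K1, a classical heavy chain, had 2265 ± 167 CPM in interferon-responding cells and 1747 ± 87.5 CPM in matched cells (SD, n = 5 libraries each), a log2 fold change of 0.37. The nonclassical H2-T24 had 1.86, Tapbp, the tapasin that loads peptides, 1.05 and H2-T23 0.82. The chaperones Calr and Canx did not pass.

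**Figure D2:**
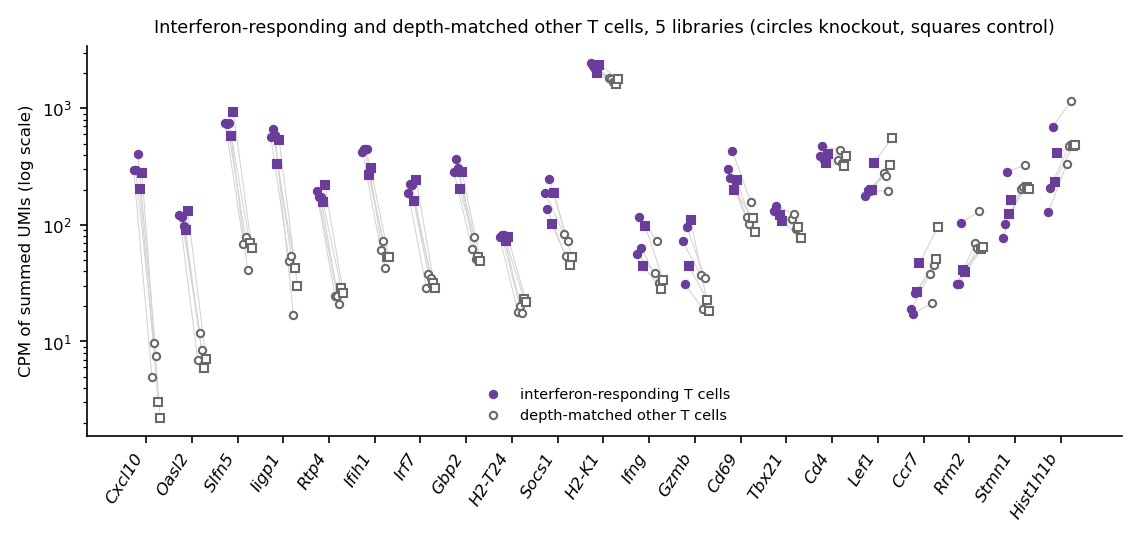
CPM (log axis) of 21 genes in interferon-responding T cells (filled) and depth-matched other T cells (open) of each library, circles for knockout and squares for control, with grey lines joining the classes of a library. Cxcl10 lies between 204 and 404 CPM in interferon-responding cells and between 2.19 and 9.68 in matched cells, whereas Cd4 overlaps.

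The program strengthened with the number of genes detected, also among genes that the rule did not use. These are medians over the 5 libraries of CPM sums in cells grouped by the number detected, given with no test because grouping and depth are linked to the rule. The antiviral effectors summed to 7685 CPM in cells with 0 of the 8 genes, 16857 with 4 and 35609 with 8. Interferon-γ targets summed to 1429, 2814 and 9838 CPM, and MHC class I genes to 9486, 11815 and 14458. Cxcl10 had 3.71, 52.5 and 828 CPM, so its steepest part lay among the cells with most genes. Cd69 had 120, 139 and 479 CPM. The cell cycle list had 2388, 2736 and 2045 CPM and no such trend.

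**Figure D3:**
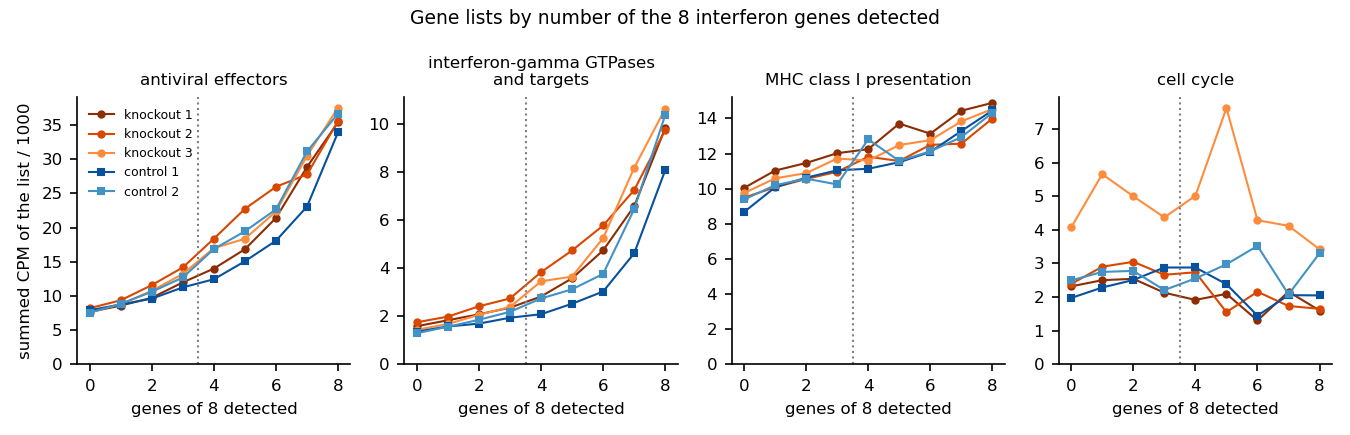
Summed CPM, divided by 1000, of 4 gene lists in T cells with 0 to 8 of the interferon genes detected, one line per library (circles knockout, squares control; the dotted line is the threshold of 4 genes). Antiviral effectors have medians over libraries of 7685 CPM at 0 genes and 35609 at 8, and knockout replicate 3 lies highest for the cell cycle list at each number of genes from 0 to 8.

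A Cd4 UMI was found in 90.8% of interferon-responding cells and 90.7% of matched cells, beside 49 of 140 cells with Cd79a but without Cd3e (35%), at their lower median of 4956 UMIs. A Cd8a UMI was found in 4.85% of interferon-responding cells and 3.84% of matched cells. None of the 6 T cell genes Cd3d, Cd3g, Cd28, Lck, Trac and Cd4 passed the test, and their sum was 2788 to 3157 CPM over the 5 libraries in interferon-responding cells and 2690 to 3104 in matched cells. At least 2 of the Th1 genes Cxcr3, Cxcr6, Nkg7, Ccl5, Il12rb2 and Tbx21 were detected in 88.2% of interferon-responding cells and 79.3% of matched cells, higher in 5 of 5 libraries. Of this set Ccl5 had a UMI in 71.7% of interferon-responding cells and in 15.7% of the 140 cells with Cd79a but without Cd3e. The difference of the set gave p = 0.0625 in a two-sided exact paired permutation test, the smallest that 5 libraries allow.

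**Figure D4:**
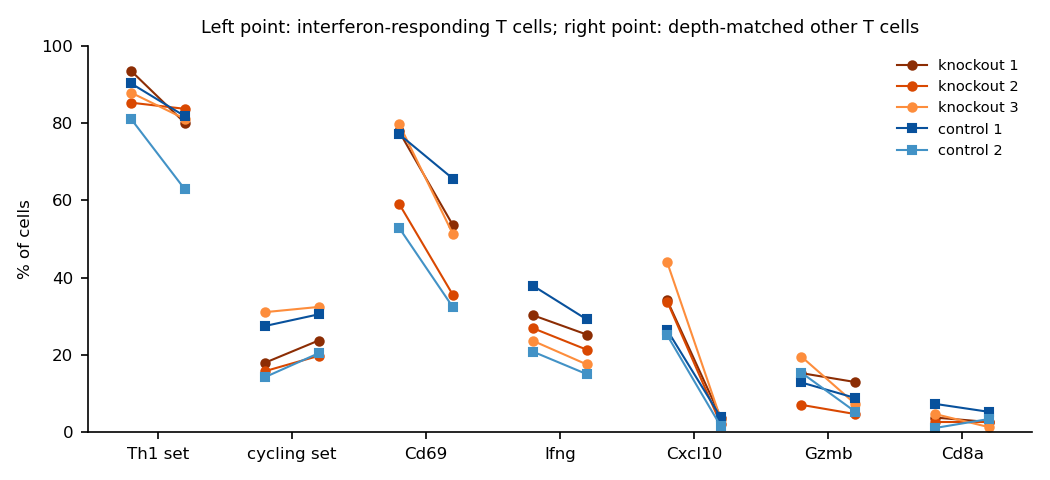
Percentage of cells with a marker set or gene in interferon-responding cells (left point of each pair) and depth-matched other T cells (right point), one line per library (circles knockout, squares control). The Th1 set is higher and the cycling set lower in interferon-responding cells of all 5 libraries, pooled 88.2% against 79.3% and 22.3% against 26.2%.

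Of 12 genes of naive and quiescent T cells, 10 fell in interferon-responding cells and 0 rose, beside 5.12% and 8.87% of all genes. Their median log2 fold change was -0.39. Ccr7, the receptor that holds naive cells in lymph nodes, had 18.8, 17.4 and 26.2 CPM in interferon-responding cells of the knockout libraries and 26.6 and 46.8 in those of the controls, against 37.7, 21.2 and 45.3 CPM in matched cells of the knockouts and 50.7 and 95.9 in those of the controls. It was lower in each library (log2 fold change -0.88, SE 0.10, adjusted p = 1.1e-05 in edgeR). Lef1, a factor of naive T cells, had -0.55, Satb1, a chromatin organiser, -0.55, Igfbp4 -0.90 and Bach2, which restrains effector genes, -0.37. Foxp1 and Il7r did not pass.

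Of the Th1 list 7 of 15 genes rose and 0 fell, beside 8.87% and 5.12% of all genes. The changes were small, with a median of 0.17. Il12rb1, a chain of the interleukin-12 receptor, had a log2 fold change of 0.87, the chemokine Ccl5 0.34 and the Th1 factor Tbx21 0.33. With cells thinned to 2000 UMIs 3 of the 15 rose and 1 fell. Of 6 Th17 genes 0 rose and 2 fell, among them Ccr6, the receptor for Ccl20, at -1.09 (adjusted p = 0.0031 in edgeR) and at -0.70 without control replicate 1. None of the 4 Th2 genes tested, Il1rl1 among them, nor of the 8 genes of the regulatory T cell list passed in either direction.

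Of 15 genes of activation and T cell receptor response 1 was called higher and 1 lower, shares of the order of the 8.87% and 5.12% over all genes. The one called higher was Cd69, which keeps T cells in tissue and is known as both an interferon and a T cell receptor target. It had 301, 251 and 432 CPM in interferon-responding cells of the knockout libraries and 201 and 244 in those of the controls, against 117, 101 and 158 CPM in matched cells of the knockouts and 115 and 87.1 in those of the controls. Every interferon-responding value lay above every matched value (log2 fold change 1.21, SE 0.09). Since the gate also picks cells for interferon targets, the Cd69 values describe these cells and are given without a p. Gzmb, the protease granzyme B, had 72.3, 31.2 and 96.2 CPM in interferon-responding cells of the knockout libraries and 44.5 and 110 in those of the controls, against 37.1, 19.0 and 35.3 CPM in matched cells of the knockouts and 22.8 and 18.1 in those of the controls. It was higher in 5 of 5 libraries (log2 fold change 1.21, SE 0.16, adjusted p = 8.3e-05 in edgeR). Gzma, granzyme A, had a log2 fold change of 1.39, and 2.26 without control replicate 1. The cytotoxic list had 5 higher and 1 lower of 11, beside 8.87% and 5.12% of all genes. A Gzmb UMI was found in 243 of 1876 interferon-responding cells, 151 of 1876 matched cells and 3 of 140 cells with Cd79a but without Cd3e.

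Among genes of cell death and survival 9 of 20 rose and 1 fell, beside 8.87% and 5.12% of all genes. Xaf1 and Daxx, among those that rose, are also on the list of antiviral effectors. The count therefore includes genes that the gate itself favours. Mlkl, the executor of necroptosis, averaged 19.4 ± 7.15 CPM in interferon-responding cells and 3.70 ± 0.819 CPM in matched cells (SD, n = 5 libraries each; log2 fold change 2.25). Casp4, a caspase that senses bacterial lipopolysaccharide, had 1.16 and Tnfsf10, the death ligand TRAIL, 0.84. The survival gene Bcl2 was the member that fell, by 0.43 on the log2 scale. Of 14 genes of tissue dissociation and stress 3 rose and 0 fell, beside the same shares of all genes. Among those that rose were the heat shock genes Hspa1b (0.62) and Hspa8 (0.20). Hspa1b did not pass without control replicate 1 (adjusted p = 0.0594 in edgeR) nor at 2000 UMIs (adjusted p = 0.102). Xaf1, an interferon-induced partner of apoptosis inhibitors, had 2.21.

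The cell cycle list depended on the cells chosen for comparison. Over all genes, 5.12% fell and 8.87% rose against matched cells. Against matched cells 17 of 22 genes fell and 0 rose, and the genes with the smallest p among all those that fell were, beside Ccr7, Ncapg2 (-0.92), Hist2h2ac (-0.72), Hist1h1a (-0.86), Prim1 (-0.75), Hist1h1b (-0.91), Dut (-0.50), Hnrnpab (-0.31), Rrm2 (-0.72), Atp1b1 (-1.27), H2afz (-0.37) and Txk (-0.58). Of these, Hist2h2ac, Hist1h1a, Hist1h1b and H2afz encode histones, Prim1 a primase subunit and Rrm2 a subunit of ribonucleotide reductase. Stmn1, a regulator of microtubules, had 77.0, 103 and 286 CPM in interferon-responding cells of the knockout libraries and 124 and 165 in those of the controls, against 202, 211 and 326 CPM in matched cells of the knockouts and 213 and 203 in those of the controls. Against all other T cells of the libraries, which were shallower, 0 of 22 fell and 0 rose, with a median of -0.06. At 2000 UMIs 3 of 22 fell, and without control replicate 1 11 did. At least 2 of Mki67, Top2a, Birc5 and Cenpf were detected in 22.3% of interferon-responding cells and 26.2% of matched cells, lower in 5 of 5 libraries (exact paired p = 0.0625).

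Transcripts of other cell types were present and also differed. The 8 macrophage and monocyte genes other than C1qa summed to 453 to 490 CPM in interferon-responding cells of the knockout libraries and 734 to 924 in those of the controls, against 142 to 439 CPM in matched cells of the knockouts and 334 to 434 in those of the controls. Most of these UMIs were of Lyz2, lysozyme, which had 334, 318 and 343 CPM in interferon-responding cells of the knockouts and 551 and 774 in those of the controls, against 50.8, 288 and 112 CPM in matched cells of the knockouts and 322 and 213 in those of the controls. Of this list 6 of 7 genes tested were called higher, beside 8.87% of all genes. With DESeq2 the number was 2 and without control replicate 1 it was 3, and at 2000 UMIs Lyz2 turned to -0.67. At least 1 of the 8 macrophage and monocyte genes had a UMI in 43.5% of interferon-responding cells and 42.3% of matched cells. At least 2 of 35 markers of non-T cells were found in 17.6% of interferon-responding cells and 14.8% of matched cells. The markers Retnlg (neutrophil) and Hbb-bs and Hba-a1 (red cell) were at 0 in interferon-responding cells, and S100a8 had 3 UMIs.

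The antiviral values were also taken with fewer such cells. With the cells that had 2 or more of them left out, and those with 1 kept, 61 of 62 antiviral effectors were called higher. The median log2 fold change of the 62 was 2.21, and Cxcl10 had 5.85. The interferon-responding cells that remained had passed the same gate, which also picks cells for these genes. The calls therefore describe the cells, and the source of the transcripts was not tested by them. Cxcl10 was found in 292 of the 978 interferon-responding cells with no non-T marker (29.9%) and in 103 of the 330 with 2 or more (31.2%).

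Between genotypes, the targeted gene comes first. Il1rl1 had 63.7, 37.5 and 9.50 CPM in interferon-responding cells of the knockout libraries and 6.70 and 7.28 in those of the control libraries. All 3 knockout values lay above both control values (log2 fold change 2.53, SE 0.58, adjusted p = 0.405 in edgeR), and without knockout replicate 3 the difference was 2.89 and passed (adjusted p = 0.0155 in edgeR). The rule leaves out cells with a UMI of Foxp3, the gene that drives Cre, though cells whose Foxp3 went undetected may remain. For this reason, and because the deleted exons are not known here, Il1rl1 does not check the labels in these cells.

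In knockout against control interferon-responding cells, edgeR called 0 of 10239 genes at an adjusted p under 0.05 (0.0%), and 535 (5.23%) had an unadjusted p under 0.05. DESeq2 called 22, of which 11 were higher and 11 lower. Without control replicate 2 and without knockout replicate 3 edgeR called 6 genes each. Knockout and control values lay apart for 18.1% of genes (9.41% in the higher and 8.74% in the lower direction), and 51.7% of log2 fold changes were positive. The differences given here for single genes therefore did not pass. Scaling factors were computed anew for each comparison, so CPM of the same cells differ slightly between the comparisons.

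Lilr4b and Lilrb4a, near-identical receptors of the immunoglobulin family whose reads may be split between them, were among the genes of smallest p. Lilr4b had 74.8, 86.4 and 64.8 CPM in knockout cells and 28.6 and 25.8 in control cells (log2 fold change 1.46, SE 0.17, adjusted p = 0.164 in edgeR). Lilrb4a had 60.1, 61.9 and 50.1 CPM in knockout cells and 30.5 and 22.4 in control cells (1.07). Every knockout value of both lay above every control value.

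Serpina3g, an inhibitor of intracellular proteases induced by interferon-γ, had 183, 183 and 155 CPM in knockout cells and 95.9 and 93.6 in control cells (log2 fold change 0.88, adjusted p = 0.246 in edgeR). Its neighbour Serpina3f had 58.2, 62.3 and 44.0 CPM in knockout cells and 28.6 and 26.3 in control cells (1.00). St6galnac3, a sialyltransferase, had 674, 645 and 427 CPM in knockout cells and 236 and 284 in control cells (1.17). Ddit4, a stress-induced inhibitor of mTOR signalling, had 88.9, 91.4 and 73.4 CPM in knockout cells and 43.2 and 51.5 in control cells (0.88). For all 4 genes, too, the lowest knockout value was above the highest control value.

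Of the 6 genes of smallest p in the lower direction, none passed. Dapl1, a quiescence gene of naive T cells, had 4.90, 3.82 and 4.32 CPM in knockout cells and 17.9 and 28.0 in control cells (log2 fold change -2.32, SE 0.32, adjusted p = 0.22 in edgeR). Il6ra, the interleukin-6 receptor chain of naive and memory cells, had 47.0, 57.0 and 50.1 CPM in knockout cells and 90.1 and 86.3 in control cells (-0.78). Dock4, a guanine exchange factor, had -1.32 and the phosphodiesterase Pde7b -1.49. Bank1, a B cell scaffold, had 17.3, 17.6 and 30.2 CPM in knockout cells and 50.5 and 57.7 in control cells (-1.38), and Mef2c, a factor of B and myeloid cells, had -1.27.

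Transcripts of other cell types are given beside these values, and none of them passed. Cd79a had 1.96, 7.26 and 5.18 CPM in knockout cells and 22.6 and 21.9 in control cells, and the 4 B cell markers tested were all lower in every knockout library. Of the 8 macrophage and monocyte genes 3 had a positive log2 fold change. Of these 8 genes 4 lay apart in the lower direction and 0 in the higher, beside 8.74% and 9.41% of all genes. Lyz2 had 325, 308 and 339 CPM in knockout cells and 536 and 751 in control cells, whereas C1qb had 7.51, 15.3 and 13.8 CPM in knockout cells and 2.42 and 10.6 in control cells (log2 fold change 1.33). With cells that had 2 or more non-T markers left out, Bank1 was at 0.59. The part of these transcripts in the other differences was not tested.

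Among interferon genes the differences were small. Of the interferon-γ targets 21 of 23 had a positive log2 fold change, with a median of 0.35 beside 0.01 over all genes, and 0 passed. Of the 23, 12 lay apart in the higher direction and 0 in the lower, beside 9.41% and 8.74% of all genes. Cd274 had 206, 191 and 198 CPM in knockout cells and 125 and 140 in control cells (0.59, adjusted p = 0.352 in edgeR). Ifih1 had 415, 431 and 446 CPM in knockout cells and 261 and 300 in control cells (0.62, adjusted p = 0.352 in edgeR). Cxcl10 had 286, 285 and 399 CPM in knockout cells and 199 and 271 in control cells (0.46, adjusted p = 0.932 in edgeR). Its share of cells with a UMI was 34.1%, 33.8% and 43.9% in knockout and 26.4% and 25.1% in control libraries (exact permutation p = 0.2, the smallest possible). Gm4951 had a log2 fold change of 1.16, Gbp5 0.53, Iigp1 0.51 and Nlrc5, the activator of MHC class I genes, 0.32.

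These values depended on the setting. Of the 63 antiviral effectors 50 had a positive log2 fold change (median 0.16). Of these 63 genes 11 lay apart in the higher and 1 in the lower direction, beside 9.41% and 8.74% of all genes. Without the deep control replicate 1, 30 of 63 were positive (median -0.01), and 19 of 23 interferon-γ targets (median 0.18). With all cells thinned to 2000 UMIs before the rule was applied, which also left fewer members and 3660 genes tested, 28 of 60 effectors (median -0.02) and 12 of 20 interferon-γ targets (median 0.08) were positive, and Cxcl10 was at -0.19. MHC class I genes were positive in 16 of 23 (median 0.08), and in 5 of 23 (median -0.12) at 2000 UMIs.

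No gene of the T cell state lists passed. Of 12 naive genes 1 had a positive log2 fold change (median -0.48) and 7 lay apart in the lower direction, beside 8.74% of all genes. Tcf7, a factor of naive and memory T cells, had 211, 204 and 183 CPM in knockout cells and 281 and 314 in control cells (-0.57). Ccr7 had a log2 fold change of -0.78, Klf2 -0.63 and Bach2 -0.54. At 2000 UMIs 5 of the 9 naive genes tested were positive (median 0.03). Of 15 Th1 genes 12 were positive (median 0.27), and 5 lay apart in the higher direction, beside 9.41% of all genes. With cells that had 2 or more non-T markers left out the median was 0.11, and at 2000 UMIs 8 of 13 were positive (median 0.10). Il12rb1 was at 0.53. Il12rb2 had 60.8, 113 and 44.0 CPM in knockout cells and 33.8 and 41.5 in control cells (1.02), so knockout replicate 3 lay close to the controls. Il18r1, a chain of the interleukin-18 receptor, had 370, 532 and 182 CPM in knockout cells and 156 and 196 in control cells (1.07), and knockout replicate 3 lay between the controls. Il23r, a receptor of Th17 cells, had 39.9, 26.4 and 2.59 CPM in knockout cells and 2.91 and 3.36 in control cells, and knockout replicate 3 was below both controls. Ifngr1, a chain of the interferon-γ receptor, had 0.55 and Entpd1, the ectonucleotidase CD39, 0.63. The 5 Th17 genes tested were all positive (median 1.09), and 0 lay apart. On the regulatory T cell list 7 of 8 genes were positive (median 0.45), and 2 lay apart in the higher direction. That list summed to 692 to 828 CPM in knockout cells and 550 to 635 in control cells. In matched cells it summed to 690 to 837 CPM in knockout and 589 to 590 in control libraries. Of 14 stress and dissociation genes 1 was positive (median -0.43).

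**Figure D5:**
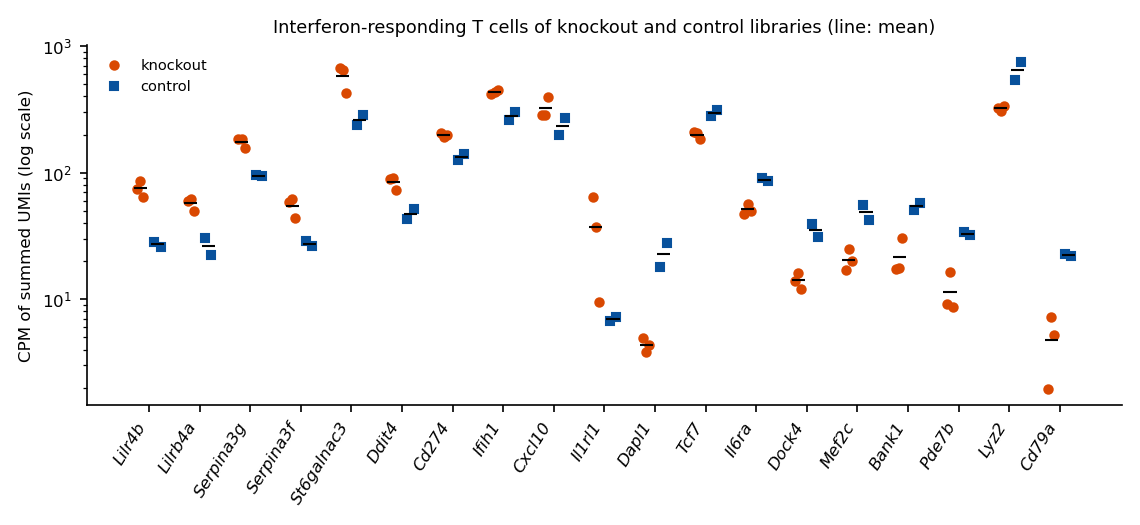
CPM (log axis) of 19 genes in interferon-responding cells of the 3 knockout libraries (orange circles) and 2 control libraries (blue squares), with the mean of each group as a line. Lilr4b lies between 64.8 and 86.4 CPM in knockout and at 28.6 and 25.8 in control cells. None of these genes passed an adjusted p of 0.05 in edgeR.

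Whether the genotype difference was particular to interferon-responding cells was tested as an interaction with matched T cells. Of 10651 genes 6 passed (0.0563%), and 401 had an unadjusted p under 0.05. The 6 were H2-Aa, Jchain, Igha, Iglv1, Mzb1 and Csf2, of which 4 are genes of antibody-secreting cells, H2-Aa is an MHC class II chain and Csf2 a cytokine. Lilr4b (0.33), Serpina3g (0.01), Cd274 (0.59), Ifih1 (0.44) and Cxcl10 (-0.75) had an adjusted p of 1.00 in the interaction, on the log2 scale of a difference between differences. No antiviral effector or interferon-γ target passed.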

How the data were processed

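The deposited values are UMI counts by gene and barcode, not normalised. Per the file headers they are Cell Ranger 8.0.0 output, and Seurat 5.1.0, Cell Ranger 8.0 and mm10 are listed in the submitters' processing notes. All 40778 barcodes and 31053 genes were read. UMI counts of the member cells, and of as many other T cells paired within a library to the nearest UMI total without replacement, were summed per library. Sums entered edgeR 4.0.16 (quasi-likelihood test, filterByExpr, TMM), with Benjamini-Hochberg adjustment over all genes kept and a threshold of 0.05. The library was a term in the comparison with matched cells and in the interaction, and the 11 genes of the rule were left out of those tables. CPM of single genes are scaled by TMM factors, and CPM sums of lists by UMI totals alone. Shares were compared by exact permutation over libraries. No caller of doublets was run. Instead the deepest 5% of members, or cells with 2 or more of 35 non-T markers, were left out as alternatives.

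The members and the 32 gene lists were chosen with earlier results of these data known. In each comparison and direction up to 12 genes of smallest p were named among those past the threshold whose libraries all lay the same way. Where fewer than 6 passed, genes that did not pass filled the number up to 6. Unnamed gene models, antigen receptor segments, sex-linked, mitochondrial and ribosomal genes, non-T markers and the genes of the rule were left out of the naming. Interferon ligands, receptors, Stat and Irf genes, Socs genes and leading list members were always named. Single marker genes and Gm4951 were named after their values were seen. The labels give no pairing of replicate numbers across groups. The edgeR steps were tested on simulated counts. Intervals are exact binomial ones (95%). Alternatives were DESeq2 1.42.0, RLE factors, no low-count filter, other thresholds, filters and depths, other comparison cells, and leaving out each library. Other tools were matplotlib 3.10.9, pandas 2.3.3, scipy 1.17.1, numpy 2.4.6, Python 3.11.15, limma 3.58.1 and R 4.3.3. Promoters came from RefSeq (GRCm38.p6) by symbol. Mx1 and Usp18 had no entry and are named only. A few genes, and results that need them, are not reported here, and the lists are given without them.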

Additional observations from a re-analysis of the deposited data

Results flagged for a closer look

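In 6 genes the knockout effect differed between interferon-responding cells and matched T cells by the interaction test of edgeR (adjusted p under 0.05), given as a log2 difference between the knockout effects. For H2-Aa, an MHC class II chain, it was 0.89 (adjusted p = 0.0034). H2-Aa had 373, 280 and 46.0 CPM in interferon-responding cells of the knockout libraries and 463 and 157 in those of the controls, against 154, 120 and 27.1 CPM in matched cells of the knockouts and 371 and 124 in those of the controls. It was higher in interferon-responding cells in 5 of 5 libraries. With cells that had 2 or more non-T markers left out, none of the 6 genes passed.

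The other 5 had negative values, which come from fitted counts near 0 and are no measure of size. The difference was -10.57 for Jchain, the joining chain of antibodies, -13.31 for Igha and -10.92 for Iglv1, antibody chains, -6.05 for Mzb1, a gene of plasma cells, and -6.30 for Csf2, the cytokine GM-CSF. Jchain had 1.34, 0 and 0 CPM in interferon-responding cells of the knockout libraries and 414 and 0 in those of the controls, against 2156, 78.4 and 0.846 CPM in matched cells of the knockouts and 435 and 0.544 in those of the controls. Knockout replicate 1 had the highest matched values of all 5 genes, and the number that passed over all genes was 2 without that library and 2 without control replicate 1. The cause was not tested.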

How the results depend on the processing

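For interferon-responding cells against matched T cells, edgeR's 1401 calls became 754 with DESeq2 (583 higher, 171 lower), 943 to 1327 with a library left out and 939 to 1971 under the other settings. Of 1055 values for 82 named genes under alternatives, 1052 kept their direction and 51 lost their call. The 3 that reversed did so with cells thinned to 2000 UMIs, Ifnar2 at -0.0094, Klrg1 at 0.049 and Lyz2 at -0.67.

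For knockout against control interferon-responding cells, the 0 calls became 22 with DESeq2, 277 without a low-count filter (89 higher, 188 lower), 31 with the replicate number as a block (19 higher, 12 lower) and 0 to 6 with a library left out, with 0 under the other settings. The labels do not pair these numbers, and the deviations of same-numbered libraries correlated at 0.17 and -0.17 across genes. Of 461 values for 32 named genes 4 reversed, Bank1 at 0.59 (non-T markers left out), Cxcl10 at -0.19 and Bach2 at 0.028 (2000 UMIs) and Ccr7 at 0.013 (at least 6 of the 8 genes).

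The 6 calls of the interaction became 2 with DESeq2, 67 without a low-count filter (32 higher, 35 lower), 2 to 14 with a library left out (14 without knockout replicate 2, 10 without knockout replicate 3) and 4, of which 0 were shared, without cells with non-T markers, an alternative chosen after the data were seen. Of its 126 values for 15 genes 0 reversed.

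The knockout minus control difference in share, 0.695 percentage points, was -1.81 without thinning, -0.13 at 1000 UMIs, 0.193 at 3000 UMIs, 0.135 to 1.21 with a library left out and 1.21 with replicates 1 and 2 paired as a block. The other thresholds and filters gave 0.0321 to 0.686. The planned test of naive-marker against Th1-marker cells could not be run, since 1 library alone had 20 cells of both. The cause was not tested where values moved. Control replicate 1 was far deeper than the other libraries, which limits the comparison of groups.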
